A study of Caenorhabditis elegans with 12 samples.

Results

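The let-7 family of Caenorhabditis elegans is represented here by 4 microRNAs, taken by their probe names (cel-let-7 and its sisters cel-miR-48, cel-miR-84 and cel-miR-241) from the 114 C. elegans probes of a 2-colour microRNA array. All 4 were among the 50 probes with enough signal to be tested. Whole worms of 3 strains that model Parkinson's disease were profiled, each hybridised together with the wild-type strain N2. The strains were a transgenic strain with human alpha-synuclein A53T, the loss-of-function mutant CB1111 of the catecholamine transporter gene cat-1 (allele e1111), and the loss-of-function mutant VC1024 of the parkin gene pdr-1 (allele gk448). Every worm was at larval stage 4 (L4), grown at 20 °C on OP50 bacteria, and the labels give 4 independent populations per strain. The promoter that drives the transgene is not given in the sources used here. N2 RNA carried one dye and strain RNA the other on every array, so a dye bias of a probe and a change shared by the strains cannot be told apart. Signal B was read as the strain, the likely direction from the order of the channels in the labels.

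The let-7 family belongs to the heterochronic pathway, which times the development of the worm. Its members share a seed, the stretch near the 5′ end that pairs with target messages. In background knowledge, let-7 accumulates late in larval life and represses lin-41, which permits the change from larva to adult, whereas miR-48, miR-84 and miR-241 act together at an earlier larval transition by repressing hbl-1. The genes mir-48 and mir-241 are neighbouring microRNA genes on chromosome V, while let-7 and mir-84 lie on chromosome X (RefSeq gene table of assembly WBcel235, in which all 4 were found).

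Since the scanner values of cat-1 replicate 4 repeat those of replicate 3, both count once, and 11 distinct arrays remain (alpha-synuclein 4, cat-1 3, pdr-1 4). Between 13 and 54 probes per array had a ratio, the fewest being 13 on alpha-synuclein replicate 4 and 14 on replicate 1 of pdr-1. Across C. elegans probes the strain and N2 signals correlated with an r from 0.086 on alpha-synuclein replicate 3 to 0.976 on cat-1 replicate 1. Of 8 probes for the embryonic miR-35 to miR-42 microRNAs, at most 1 had a signal in either channel of any array, except on alpha-synuclein replicate 3, where 4 did in the strain (8.51% of the summed C. elegans signal) and 3 in N2 (5.25%). The probes for miR-36, miR-38 and miR-41 were at 0 on every array. The muscle microRNA miR-1 had a signal on all 11 arrays, and lin-4, a marker of larvae past hatching, on 7. Over 14 shared probes, the log2 ratios of pdr-1 replicates 1 and 4 correlated at -0.56, so the direction of these arrays is not settled. Replicate 4 correlated with replicates 2 and 3 at 0.047 and 0.42, and replicate 1 with the same arrays at 0.10 and 0.039. The tests and several counts that rest on replicates 1 and 4 are also given with each array turned, that is with strain and N2 exchanged. Mean shares, counts by log2 level, percentile ranges and correlations with other microRNAs are given as labelled only. Precision is limited by the 3 or 4 arrays of each strain.

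Detection differed between the members. miR-48 had a signal in both channels on all 11 arrays, in 33 of 33 strain spots and 32 of 33 N2 spots. let-7 and miR-84 each had a signal on 10 arrays, in 27 strain spots and 25 N2 spots, and both were missing on alpha-synuclein replicate 4. miR-241 had a signal on 7 arrays, in 15 of 33 spots of each channel. It was measured on 3 of 4 alpha-synuclein arrays, 2 of 3 cat-1 arrays and 2 of 4 pdr-1 arrays. alpha-synuclein replicate 4 thus measured miR-48 alone of the family.

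The spots behind a value differed more in brightness than in ratio. On alpha-synuclein replicate 1 the let-7 spots held 754610, 73065 and 104558 scanner units of strain signal, against 3087255, 261145 and 615074 units of N2 signal. The strain signal was the lower one in all 3 spots. On alpha-synuclein replicate 2 the usable let-7 spots held 1256635 and 451672 units in the strain, against 3317615 and 1153813 units in N2. On alpha-synuclein replicate 3 the strain signal was the higher one, with 3562137, 1353748 and 4164312 units, against 150779, 109454 and 0 units in N2. That array was bright in the strain channel throughout, since its median probe had a raw log2 ratio of strain over N2 of 4.55. Over the 32 sets of at least 2 spots, the SD between spots of one probe had a median of 0.33 for log2 strain signal, 0.40 for log2 N2 signal and 0.28 for the log2 ratio.

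Because brightness differed between arrays, the level of each member was expressed as its percent of the summed signal of all C. elegans probes in the same channel. Spots above 0 were summed in each channel separately, so a spot without N2 signal still counts for the strain. let-7 made up 1.58, 0.621 and 2.74% in alpha-synuclein worms, against 5.62, 4.71 and 2.71% in N2 on the same arrays. Its share was lower in the strain on replicates 1 and 2 and close to that of N2 on replicate 3, where the third spot had a strain signal but 0 in N2. In cat-1 worms it made up 6.21, 3.81 and 2.34%, against 7.74, 3.48 and 0.893% in N2. On cat-1 replicate 3 a spot with 0 in N2 counted for the strain, and the 1 spot with both signals had a raw log2 ratio of -0.084. In pdr-1 worms it made up 4.41, 9.53, 2.15 and 3.92%, against 2.67, 9.38, 3.11 and 3.99% in N2. Neither mutant stood apart from its N2 partner. The mean share of let-7 was highest in pdr-1 worms (5.00% ± 3.17, SD, n = 4), followed by cat-1 worms (4.12% ± 1.95, n = 3) and alpha-synuclein worms (1.65% ± 1.06, n = 3), beside 4.43% ± 2.55 in N2 (n = 10). Neighbours in this order overlapped: the highest alpha-synuclein value exceeded the lowest cat-1 value.

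miR-48 showed a lower share in the strain than in N2 on 11 of 11 arrays as labelled, and on 10 of 11 with pdr-1 replicate 1 or 4 turned. A second measure, the log2 level, set the mean log2 signal against 6 probes outside the family detected on every array. These were miR-1, miR-63, miR-64, miR-65, miR-80 and miR-82. By log2 level let-7 was lower in the strain on 2 of 3 alpha-synuclein, 1 of 3 cat-1 and 1 of 4 pdr-1 arrays. Its mean strain minus N2 in alpha-synuclein worms was -0.89 ± 1.30 (SD, n = 3). For miR-48 the log2 level was lower in the strain on 2 of 4 alpha-synuclein, 1 of 3 cat-1 and 3 of 4 pdr-1 arrays. It made up 4.37, 2.67, 1.68 and 5.95% in alpha-synuclein worms, against 7.16, 3.99, 2.67 and 24.0% in N2. In cat-1 worms it made up 2.21, 1.59 and 3.44%, against 2.77, 1.70 and 4.04% in N2. In pdr-1 worms it made up 7.22, 2.57, 2.05 and 2.91%, against 9.96, 6.28, 2.46 and 3.50% in N2. The N2 share of 24.0% was that of alpha-synuclein replicate 4, on which few probes had a signal. Mean shares were 3.67% ± 1.88 in alpha-synuclein (SD, n = 4), 2.41% ± 0.94 in cat-1 (n = 3) and 3.69% ± 2.38 in pdr-1 worms (n = 4), beside 6.23% ± 6.39 in N2 (n = 11), and the ranges of all groups overlapped.

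miR-84 made up 0.584, 2.99 and 2.81% in alpha-synuclein worms, against 4.67, 4.85 and 1.76% in N2, so the third array ran opposite to the others. On that array only 1 miR-84 spot had a signal in both channels, and the others had strain signal alone. In cat-1 worms it made up 7.86, 1.73 and 10.6%, against 7.60, 1.53 and 9.01% in N2. In pdr-1 worms it made up 7.08, 10.2, 2.95 and 1.71%, against 4.05, 8.44, 2.34 and 1.48% in N2. The miR-84 share was thus higher in the strain than in N2 on all 7 cat-1 and pdr-1 arrays as labelled (6 of 7 with pdr-1 replicate 1 or 4 turned), by less than the spread between arrays of a group. By log2 level miR-84 was lower in the strain on 1 of 3 alpha-synuclein, 0 of 3 cat-1 and 1 of 4 pdr-1 arrays. Its mean share was 2.13% ± 1.34 in alpha-synuclein (SD, n = 3), 6.74% ± 4.56 in cat-1 (n = 3) and 5.48% ± 3.88 in pdr-1 worms (n = 4), beside 4.57% ± 2.90 in N2 (n = 10), with overlapping ranges.

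miR-241 made up 1.62, 1.78 and 3.31% in alpha-synuclein worms, against 2.39, 4.18 and 4.70% in N2, and its share was lower in the strain on each of these arrays. By log2 level it was lower in the strain on 1 of 3, with a mean strain minus N2 of 0.10 ± 0.59 (SD). In cat-1 worms it made up 1.40 and 1.68% on replicates 2 and 3, against 1.32 and 0.363% in N2. In pdr-1 worms it made up 3.05 and 3.66% on replicates 3 and 4, against 2.16 and 1.15% in N2. Its mean share was 2.24% ± 0.94 in alpha-synuclein (SD, n = 3), 1.54% ± 0.20 in cat-1 (n = 2) and 3.35% ± 0.43 in pdr-1 worms (n = 2), beside 2.32% ± 1.60 in N2 (n = 7). The cat-1 strain values lay below both pdr-1 strain values, and alpha-synuclein overlapped with each.

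**Figure D1:**
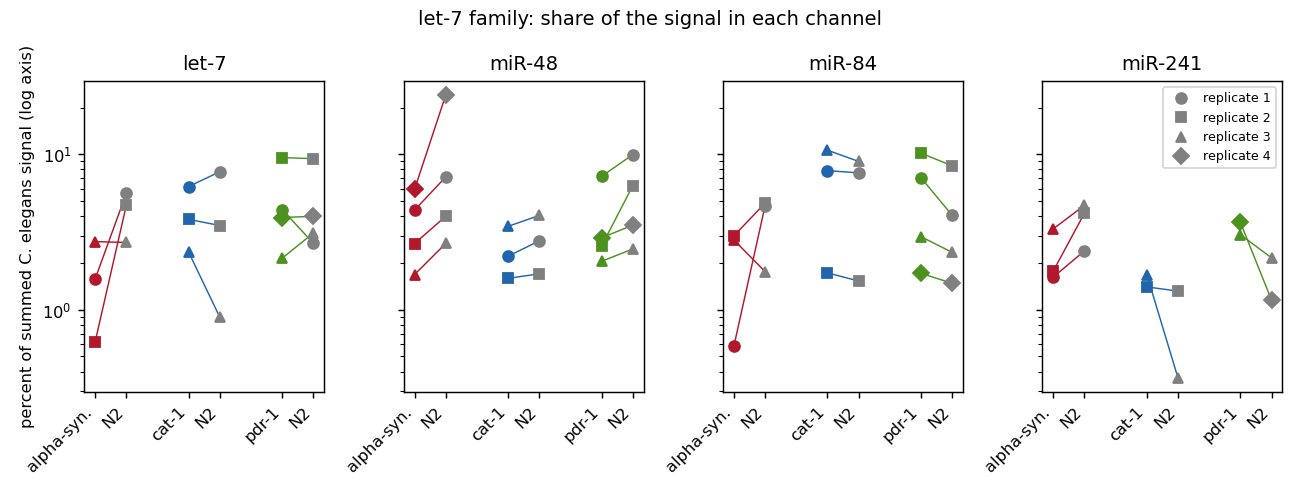
Share of the summed C. elegans signal (percent, log axis) of each let-7 family member in the strain channel and the N2 channel, where a line joins both channels of an array and the marker gives the replicate. As labelled, the lines of miR-48 run upward to N2 on all 11 arrays, while those of miR-84 run downward to N2 on every cat-1 and pdr-1 array (10 of 11 and 6 of 7 with pdr-1 replicate 1 or 4 turned).

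The strain was then compared with N2 by the log2 ratio after loess normalization within each array, which sets the ratios of an array's microRNAs around 0 along the range of brightness. Ratios were tested against 0 with limma, two-sided and adjusted by Benjamini-Hochberg over all tested probes, and called at an adjusted p under 0.05.

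let-7 was lower in alpha-synuclein worms. Its log2 ratio to N2 was -1.89, -3.00 and -0.52 on replicates 1 to 3, and none was available on replicate 4. All 3 values lay below 0, the third much closer to it than the others. The mean was -1.80 ± 1.24 (SD, n = 3, SE 0.37 in the fit), or 3.49-fold lower than in N2, with a limma adjusted p of 0.00011. Here, as for every probe, the SE and p of the fit rest on an SD of 0.64 shared by all probes, not on the probe's own spread. Without alpha-synuclein replicate 2 the mean was -1.21 and the limma adjusted p 0.0827, and a plain test per probe, which shares no spread, gave an adjusted p of 0.145. In cat-1 worms the log2 ratios were -0.33, 0.047 and -0.24, a mean of -0.17 ± 0.20 (SD, n = 3) with a limma adjusted p of 0.976. In pdr-1 worms they were 0.21, 0.14, -0.47 and -0.04, a mean of -0.040 ± 0.30 (SD, n = 4) with a limma adjusted p of 0.962. The values of both mutants straddled 0. As whole worms were extracted, fewer cells that make a microRNA and less of it per cell cannot be told apart.

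miR-48 was lower in alpha-synuclein worms at the edge of the threshold. Its log2 ratios were -1.01, -0.41, -0.30 and -2.05, all below 0, with a mean of -0.94 ± 0.80 (SD, n = 4, SE 0.32) and a limma adjusted p of 0.0457. Leaving out 1 array of any strain ended this call in 9 of 11 cases, and without alpha-synuclein replicate 4 the mean was -0.57 with a limma adjusted p of 0.395. With scale normalization between arrays it was -0.61 (adjusted p 0.309). In pdr-1 worms the log2 ratios were -0.11, -1.25, -0.56 and -0.47, again all below 0, with a mean of -0.60 ± 0.48 (SD, n = 4) and a limma adjusted p of 0.902 (unadjusted 0.0647). In cat-1 worms they were -0.17, 0.0049 and -0.16, a mean of -0.11 ± 0.10 (SD, n = 3) with a limma adjusted p of 0.976. Before normalization the miR-48 ratio lay below the median ratio of the array on all 11 arrays, between the 2.27th and the 32.4th percentile. Of the 22 probes with a ratio on at least 8 arrays, miR-48 alone lay below the median on every array as labelled, and 0 lay above it on every array. With pdr-1 replicate 1 or 4 turned, miR-48 lay below the median on 10 of 11 arrays and 0 of the 22 probes did so on every array. This design without a dye swap does not separate such a position from a dye bias of the probe.

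miR-84 did not pass the test in any strain. Its log2 ratios in alpha-synuclein worms were -2.75, -0.27 and 0.063, a mean of -0.99 ± 1.54 (SD, n = 3, SE 0.37) with a limma adjusted p of 0.0604. The first array set this mean, which was -0.10 without it. miR-84 passed with 4 other settings, among them median centring in place of loess (-1.25, limma adjusted p 0.0154) and the ratio of summed signals (-1.34, adjusted p 0.0410). In cat-1 worms the log2 ratios were -0.0073, 0.25 and 0.34, a mean of 0.20 ± 0.18 (SD, n = 3) with a limma adjusted p of 0.976. In pdr-1 worms they were 0.20, 0.31, 0.13 and -0.19, a mean of 0.11 ± 0.21 (SD, n = 4) with a limma adjusted p of 0.902.

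The mean log2 ratio of miR-241 was below 0 in alpha-synuclein worms and above 0 in both mutants, without passing the adjusted test in any strain. Its log2 ratios in alpha-synuclein worms were -0.89, -0.70 and -0.30, the tightest set of the family there, with a mean of -0.63 ± 0.31 (SD, n = 3, SE 0.37) and a limma adjusted p of 0.327. In cat-1 worms they were -0.016 and 2.12, a mean of 1.05 ± 1.51 (SD, n = 2) with a limma adjusted p of 0.543. In pdr-1 worms they were 0.58 and 1.72, a mean of 1.15 ± 0.81 (SD, n = 2) with a limma adjusted p of 0.584. The unadjusted p was 0.0217 in cat-1 and 0.0122 in pdr-1. With the cat-1 strain fitted alone the same mean had a limma adjusted p of 0.0213, and with scale normalization the pdr-1 mean was 1.40 with an adjusted p of 0.0241. The ratio of 2.12 on cat-1 replicate 3 rested on 1 spot, in an array on which miR-241 had the highest raw ratio of 30 probes. On pdr-1 replicate 4 it had the highest of 32.

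**Figure D2:**
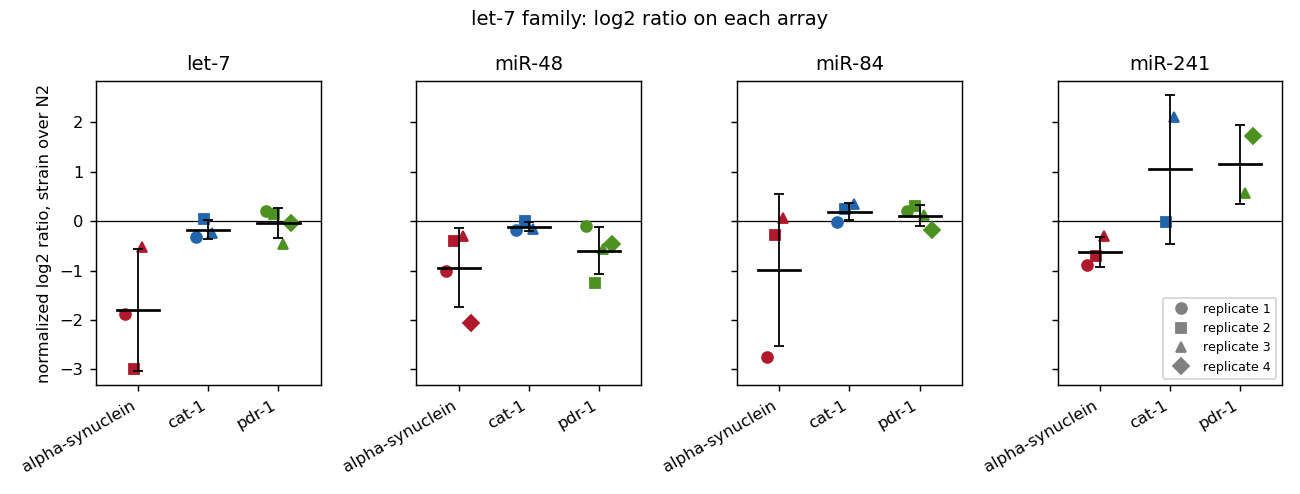
Normalized log2 ratio of strain over N2 for each member on each array (points, marker by replicate), with the strain mean (thick line) and SD (bars). let-7 lies below 0 on all 3 alpha-synuclein arrays and straddles 0 in both mutants, and the miR-241 values of alpha-synuclein and, as labelled, pdr-1 worms lie on opposite sides of 0.

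Among alpha-synuclein comparisons with N2, 2 of 4 family members were called lower and 0 higher, where 6% of the 50 tested probes were called lower, 4% higher and 10% in either direction. The median log2 ratio of the 4 members was -0.96, against 0.14 over all 50 probes, of which 22 were below 0. The direction holds relative to the other probes of the array: without normalization the members' ratios were 0.19 for let-7, 0.63 for miR-48, 0.80 for miR-84 and 1.29 for miR-241, all above 0, while the median of all probes was 1.84. With centring on dye control spots they were 0.44, 1.21, 1.05 and 1.54, with a median of all probes of 2.23. Set against the median of all probes, the 4 members were lower in alpha-synuclein worms under each of 21 settings, let-7 by -2.11 to -1.21 on the log2 scale. Several of these settings changed only the test, the filter or arrays of other strains. They left the members' median at -0.96 and so could not move the members' ratios. In cat-1 and in pdr-1 worms 0 of 4 members were called, as were 0.00% of 48 probes in each strain. limma gave 4 probes in cat-1 and 2 in pdr-1 with an unadjusted p under 0.05, and miR-241 was among them in both. The members' median log2 ratio was 0.043 in cat-1 worms, against 0.077 over all 48 probes, and 0.036 in pdr-1 worms, against -0.0034 over all 48.

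The alpha-synuclein arrays also differed among themselves. Their residual SD over all tested probes was 0.81, against 0.38 in cat-1 and 0.47 in pdr-1, and the fit shared 1 SD of 0.64. On replicate 1 the lowest member was miR-84 and on replicates 2 and 3 it was let-7. The median of the members was -1.45 on replicate 1, -0.55 on replicate 2 and -0.30 on replicate 3, and miR-48, the 1 member measured on replicate 4, was at -2.05. Worm population and array cannot be told apart here. Replicate 3, the array with the most embryonic microRNA signal in both channels, had the ratio closest to 0 of the alpha-synuclein arrays for each of the 4 members. Replicates 1 and 2 also held such signal in both channels, at 0.69 and 0.40% in the strain and 0.26 and 0.24% in N2. The part of embryonic signal in the result was not tested.

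Between strains, a dye bias that is the same on every array cancels. let-7 was lower in alpha-synuclein than in pdr-1 worms, with a log2 difference of -1.76 (SE 0.49, limma adjusted p 0.0193), and its alpha-synuclein ratios of -3.00 to -0.52 lay below all 4 pdr-1 ratios of -0.47 to 0.21. It was the 1 probe called in this comparison, or 2.08% of 48. The call was lost when alpha-synuclein replicate 1 or 2 or pdr-1 replicate 1, 2 or 4 was left out, with differences between -2.40 and -1.17 over all arrays left out in turn. It was also lost with scale normalization (-1.19, adjusted p 0.0847) and with the authors' deposited table (-1.66, adjusted p 0.149). Against cat-1 worms the let-7 difference was -1.63 (SE 0.52, limma adjusted p 0.103), and 0.00% of 48 probes were called there by limma, 4 of which had an unadjusted p under 0.05 (3 of them family members). After loess those ratios did not overlap either, as the cat-1 values ran between -0.33 and 0.047. Both separations depended on the normalization. With median centring the let-7 ratio of alpha-synuclein replicate 3 (-0.48) lay above that of pdr-1 replicate 3 (-0.69). With a straight line it was -0.500, above cat-1 replicate 3 at -0.508.

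The other members did not pass between strains in the fit described above. The miR-48 difference was -0.83 between alpha-synuclein and cat-1 worms and -0.35 between alpha-synuclein and pdr-1 worms (limma adjusted p 0.795 and 0.956). For miR-84 the differences were -1.18 and -1.10 (adjusted p 0.305 and 0.421), resting on alpha-synuclein replicate 1. For miR-241 they were -1.68 and -1.78 (adjusted p 0.111 and 0.0656), with every alpha-synuclein ratio below every pdr-1 ratio. The difference from pdr-1 passed with scale normalization (-1.77, adjusted p 0.0309) and with the replicate number as a block (-2.01, adjusted p 0.0349). The members' median was -1.41 against cat-1 and -1.43 against pdr-1 worms, where all tested probes had medians of -0.0046 and 0.027. These comparisons share the alpha-synuclein arrays. Between cat-1 and pdr-1 worms 0 of 4 members and 0.00% of 46 probes were called, and 0 had an unadjusted p under 0.05 in limma. There the log2 differences were -0.13 for let-7, 0.49 for miR-48, 0.083 for miR-84 and -0.099 for miR-241.

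The tests were repeated with pdr-1 replicate 1 or 4 turned. With replicate 1 turned, the pdr-1 means were -0.15 for let-7, -0.54 for miR-48, 0.014 for miR-84 and 1.15 for miR-241. With replicate 4 turned they were -0.020, -0.36, 0.20 and -0.57, so that miR-241 changed sign. The let-7 difference between alpha-synuclein and pdr-1 worms stayed past the threshold either way, at -1.66 when replicate 1 was turned (limma adjusted p 0.0374) and -1.78 when replicate 4 was (0.0206). The miR-241 difference was -1.78 in the first case and -0.057 in the second.

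Within an array, members can be compared by their ratios without normalization as far as a constant shift of the whole array goes, since it affects all of them. A bias that varies with brightness, or a dye bias of a probe, does not cancel in these differences. On pdr-1 replicate 1, let-7 minus miR-48 was 1.26 by raw ratios and 0.32 after loess. The raw log2 ratio of let-7 minus that of miR-48 was -1.07 ± 1.11 in alpha-synuclein (SD, n = 3, lower on 3 of 3 arrays), 0.056 ± 0.15 in cat-1 (n = 3) and 0.66 ± 0.76 in pdr-1 worms (n = 4, higher on 3 of 4). Turning pdr-1 replicate 1 gave a pdr-1 mean of 0.031 ± 1.08, and turning replicate 4 gave 0.61 ± 0.81, with let-7 higher on 2 of 4 arrays each time. Over all strains, let-7 lay below miR-84 on 9 of 10 arrays by raw ratios and on 7 of 10 after loess, and on 8 of 10 by raw ratios with pdr-1 replicate 1 or 4 turned. It lay below miR-241 on 6 of 7 arrays on both scales, and on 5 of 7 by raw ratios with pdr-1 replicate 4 turned. miR-48 lay below miR-84 by -0.36 ± 0.094 in cat-1 (3 of 3 arrays) and by -0.99 ± 0.54 in pdr-1 worms (4 of 4), while in alpha-synuclein worms the difference was 0.47 ± 1.20. In pdr-1 worms, turning replicate 1 gave -0.32 ± 1.21 and turning replicate 4 gave -0.78 ± 0.90, with miR-48 lower on 3 of 4 arrays each time. For the products of the neighbouring genes mir-48 and mir-241, the raw ratio of miR-48 minus that of miR-241 differed in sign between alpha-synuclein arrays. It was -0.27, 0.61 and -0.44 on replicates 1 to 3, with a mean of -0.031 ± 0.57 (n = 3). In cat-1 worms miR-48 lay below miR-241 by -1.31 ± 1.59 (n = 2) and in pdr-1 worms by -1.43 ± 0.67 (n = 2), which became 0.48 ± 2.02 with replicate 4 turned.

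**Figure D3:**
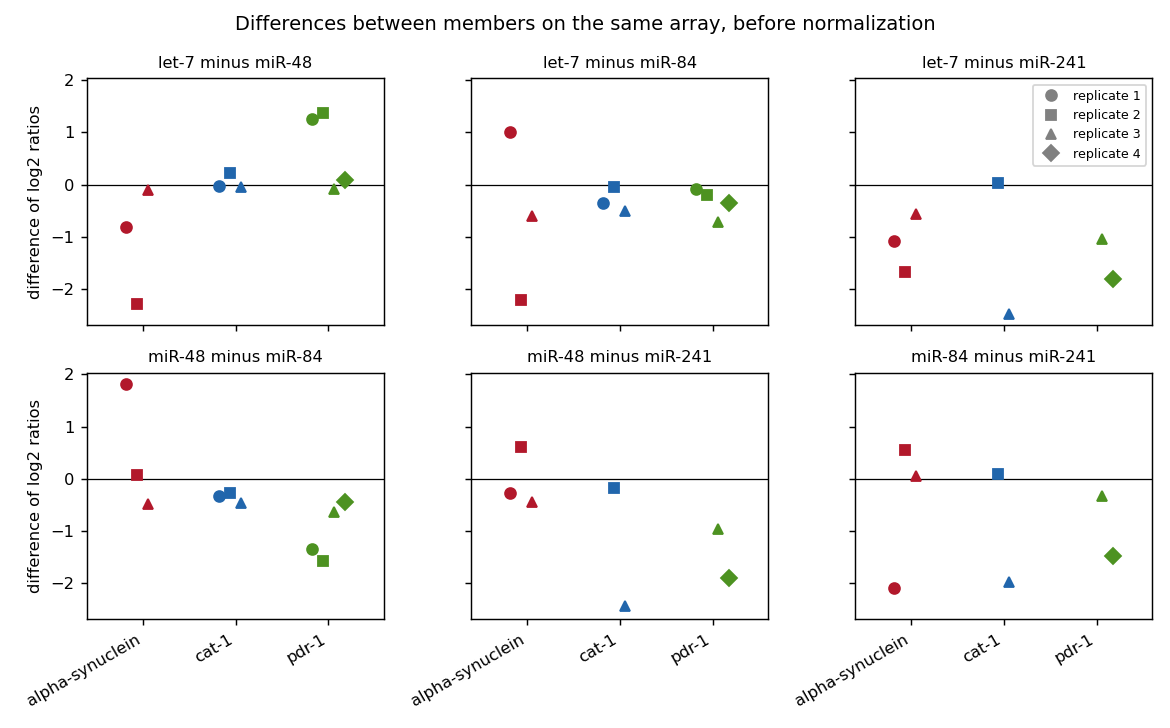
Difference between the raw log2 ratios (strain over N2) of each pair of members on each array, grouped by strain, with the marker giving the replicate. let-7 minus miR-48 lies below 0 on all 3 alpha-synuclein arrays and, as labelled, above 0 on 3 of 4 pdr-1 arrays (2 of 4 with replicate 1 or 4 turned), and miR-48 minus miR-84 lies below 0 on all 7 cat-1 and pdr-1 arrays (6 of 7 with either turned).

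The place of each member among the probes of an array was taken from the raw ratios, free of scale. It can fall on the other side of the middle than the normalized ratio. miR-241 on alpha-synuclein replicate 3 (loess -0.30, percentile 56.7) and miR-84 on pdr-1 replicate 4 (loess -0.19, percentile 60.9) are examples. let-7 had the third lowest raw ratio of 50 probes on alpha-synuclein replicate 1, the lowest of 53 on replicate 2 and the 13th lowest of 45 on replicate 3. In the mutants its percentile ranged between 9.72 and 58.3 for cat-1 and between 19.4 and 82.1 for pdr-1. miR-84 had the lowest of 50 ratios on alpha-synuclein replicate 1 and the highest of 14 on pdr-1 replicate 1, so it spanned the whole order. It lay above the median on all 7 arrays of the mutants as labelled, and on 6 of 7 with pdr-1 replicate 1 or 4 turned.

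**Figure D4:**
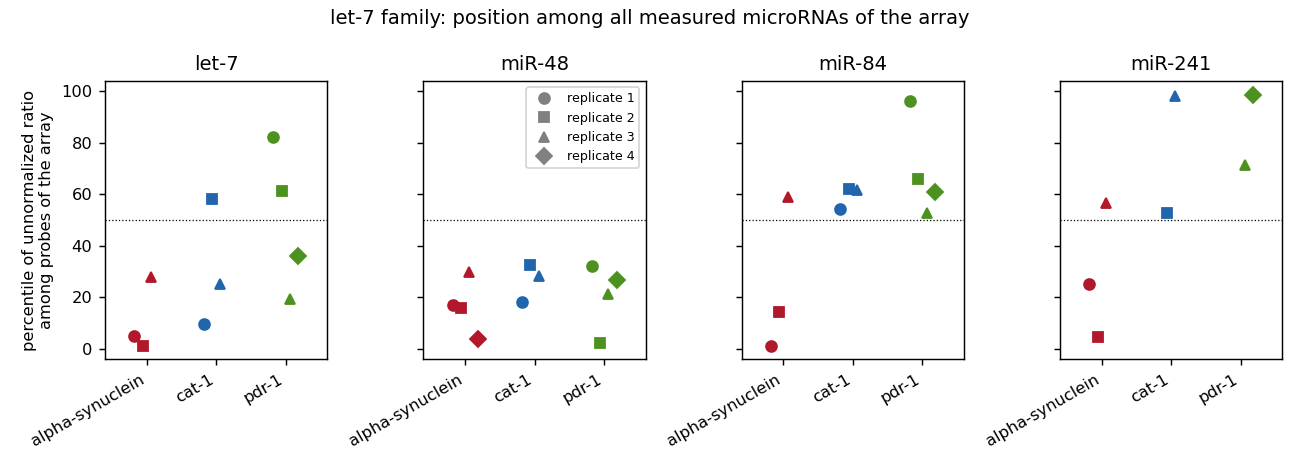
Percentile of each member's raw ratio of strain over N2 among all C. elegans probes with a ratio on the same array, with a dotted line at the middle and the marker giving the replicate. As labelled, miR-48 lies below the middle on all 11 arrays and miR-84 above it on all 7 cat-1 and pdr-1 arrays (10 of 11 and 6 of 7 with pdr-1 replicate 1 or 4 turned).

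Few other developmental timing microRNAs could be followed. Of 6 chosen, 2 were tested, and 0 of these were called in either direction in any strain. lin-4, which acts ahead of the let-7 family in larval timing by repressing lin-14, had a mean log2 ratio of -0.51 ± 1.61 in alpha-synuclein (SD, n = 3), -0.037 ± 0.13 in cat-1 (n = 2) and 0.55 ± 0.023 in pdr-1 worms (n = 2). miR-235 had a log2 ratio of 1.74 on its 1 alpha-synuclein array (limma adjusted p 0.0604) and a mean of 0.17 ± 0.56 in pdr-1 worms (n = 2), with no ratio in cat-1 worms. The lin-4 relative miR-237 had no signal on any array, and miR-793, miR-794 and miR-795 were not among the probes.

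The microRNAs most alike to each member were sought by correlating normalized log2 ratios over at least 6 shared arrays. let-7 was most like the muscle microRNA miR-1 (Pearson r 0.83, Spearman rho 0.83, 10 arrays), followed by miR-80 (r 0.79) and miR-82 (r 0.71). Without the 2 arrays farthest from the let-7 median these were 0.63, 0.62 and 0.35. miR-241 was most like miR-80 (r 0.82, 7 arrays), followed by miR-87 (r 0.79, 6 arrays) and miR-81 (r 0.75, 7 arrays), which became 0.53, 0.61 and -0.054 without the 2 farthest arrays. For miR-48 the order was miR-70 (r 0.72, 6 arrays), miR-73 (r 0.69, 6 arrays) and miR-66 (r 0.69, 8 arrays). Without the 2 farthest arrays, miR-66 kept an r of 0.71 while that of miR-70 became -0.44 and that of miR-73 became -0.57. For miR-84 it was miR-87 (r 0.79, 8 arrays), miR-230 (r 0.77, 6 arrays) and miR-80 (r 0.66, 10 arrays), which became -0.70, -0.96 and 0.19. These values describe few points that share arrays, dyes and normalization. Over all shared arrays no other member was among the 3 most alike of any member, and let-7 correlated with miR-241 at 0.66, with miR-84 at 0.56 and with miR-48 at 0.20. That order rests on the farthest arrays: without the 2 farthest from its median, miR-241 correlated with let-7 at 0.73 and with miR-84 at 0.68, above its 3 named microRNAs, and miR-48 with miR-84 at 0.60, above miR-70 and miR-73.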

How the data were processed

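Small RNA (under 200 nt) was put on 2-colour NCode arrays with 3 spots per probe, per the labels' protocols. The deposited scanner files hold signal intensities per channel and flags, per the file headers, without a background column, and values above 0 were taken as signal. The authors' deposited table holds log2 ratios of signal B over A, matched to the scanner values in 10 of 12 columns. For alpha-synuclein replicate 2 and cat-1 replicate 4 its centring and source remain unknown. In replicate order, its column medians for alpha-synuclein were 0.071, 0.27, -0.056 and 0.40. Those for cat-1 were -0.026, 0.076, 0.030 and 0.13. The medians of pdr-1 were 0.20, 0.052, 0.19 and -0.026. The table holds 0 further columns. The dye behind each letter and what the flags stand for are not given here.

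S-flagged spots were dropped. Log2 ratios were normalized within arrays (loess over C. elegans spots, span 0.3, 4 iterations) and averaged per probe. Probes with signal on at least 4 of 11 distinct arrays entered limma 3.58.1 under R 4.3.3 (lmFit, eBayes, 1 mean per strain, a shared SD, Benjamini-Hochberg at 0.05), and a fit uses only arrays with a ratio in both channels. N2 has no arrays of its own. Means, shares and correlations used Python 3.11.15 and pandas 2.3.3. The fit was also run on simulated ratios with 1 SD per strain for all probes, so that run does not cover probes of unequal spread.

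The members and lists were chosen with earlier results of these data known. Named were the 4 members, 6 other timing microRNAs and, per member, the 3 probes with the highest correlation. Embryonic, muscle and larval microRNAs served as markers. Among neuronal markers miR-124 had no call and lsy-6 no signal. Alternatives changed the normalization, the filter, the flags, spot averaging, the model, a replicate block, the source table, the direction of arrays or the arrays used.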

Additional observations from a re-analysis of the deposited data

Results flagged for a closer look

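let-7 differed between 2 strains measured against the same wild type. The log2 ratio to N2 was -1.80 in alpha-synuclein worms and -0.040 in pdr-1 worms, a difference of -1.76 with a limma adjusted p of 0.0193.

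After loess, miR-241 lay below 0 on all 3 alpha-synuclein arrays and above 0 on both pdr-1 arrays that measured it. With median centring its ratio on alpha-synuclein replicate 3 was 0.076. The difference of -1.78 did not pass the limma test of the difference (adjusted p 0.0656), and with pdr-1 replicate 4 turned it was -0.057.

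The cat-1 replicate 4 column of the authors' deposited table was not used in the main fit. The scanner file of that replicate repeats replicate 3, and the column does not match it. The column did enter the alternative that took the deposited table as its source. In the authors' deposited table this column gives log2 ratios of -0.84 for let-7 (1 spot), 0.29 for miR-48 (3 spots), -0.53 for miR-84 (3 spots) and 0.21 for miR-241 (2 spots).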

How the results depend on the processing

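Counts of called probes depended most on the normalization. For alpha-synuclein over N2 (5 calls) they were 18, all higher, without normalization, 8 with median centring, 0 with dye control centring or a plain test per probe, 1 with scale normalization or each strain fitted alone, and 3 with signals on at least 6 arrays or pdr-1 replicate 4 turned. Leaving out 1 array gave 1 to 5. For cat-1 over N2 (0 calls) there were 1 with scale normalization and 4 with the strain alone or the identical arrays counted separately. Scale normalization also gave 1 for pdr-1 over N2 and 1 for cat-1 over pdr-1. For alpha-synuclein over cat-1 the identical arrays counted separately gave 2, and leaving out 1 array gave 0 to 1. For alpha-synuclein over pdr-1 (1 call) there were 0 without normalization, with dye control centring, with a plain test, with the deposited table or without the 2 sparsest arrays (an alternative chosen after seeing the data), and 0 to 1 with 1 array left out.

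By log2 level in place of the share, the log2 value of strain over N2 changed sign for miR-48 in cat-1 worms (-0.22 to 0.055). It also did for miR-241 in alpha-synuclein worms (-0.77 to 0.10). Reversed directions of the members' array ratios were these. Without normalization the alpha-synuclein over N2 values were 0.19 for let-7, 0.63 for miR-48, 0.80 for miR-84 and 1.29 for miR-241. let-7 and miR-48 were 0.45 and 0.39 in cat-1 and 1.86 and 1.20 in pdr-1. miR-48 and miR-84 were 0.24 and 0.046 for alpha-synuclein over cat-1, and -0.81 and -1.45 for cat-1 over pdr-1. With dye control centring, for which cat-1 replicate 3 had no usable spots, the alpha-synuclein values were 0.44, 1.21, 1.05 and 1.54. let-7 and miR-48 were 1.73 and 1.63 in cat-1 and 2.25 and 1.59 in pdr-1, miR-241 was 0.30 for alpha-synuclein over cat-1 and miR-84 -0.65 for cat-1 over pdr-1. Near 0, let-7 in pdr-1 over N2 turned to 0.081 with the deposited table, 0.042 with summed signals, 0.026 with scale normalization and 0.020 with a straight line. miR-48 in alpha-synuclein over pdr-1 turned to 0.053 with scale normalization and 0.19 without the 2 sparsest arrays. miR-84 in cat-1 over N2 turned to -0.0099 with the deposited table, which includes the cat-1 replicate 4 column (-0.53 for miR-84). In cat-1 over pdr-1 miR-84 turned to -0.38 with the deposited table, -0.058 with loess span 0.7, -0.17 with median centring, -0.029 with spot medians, -0.22 with summed signals, -0.15 with a straight line and -0.0095 with pdr-1 replicate 4 turned. There miR-241 turned to 0.26 with the identical arrays counted separately, 0.0096 with span 0.7, 0.092 with median centring, 0.056 with summed signals, 0.034 with a straight line and 1.62 with pdr-1 replicate 4 turned, which also gave -0.57 in pdr-1 over N2. The cause was not tested.

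Leaving out 1 array moved miR-241 in cat-1 over N2 between -0.016 and 2.12 and in cat-1 over pdr-1 between -1.17 and 0.97, let-7 in pdr-1 over N2 between -0.12 and 0.10, miR-48 in alpha-synuclein over pdr-1 between -0.56 and 0.025, and miR-84 in cat-1 over pdr-1 between -0.016 and 0.18. Replicate numbers did not pair the samples (median correlation of deviations -0.15 over 10 same-number pairs, 0.089 over 30 others). With the replicate number as a block, alpha-synuclein over N2 gave 3 calls and over pdr-1 gave 2, of which miR-241 was one (-2.01). No normexp correction or slide and scan block was run, since the files give neither background, slide nor scan. Signal above 0 in both channels limits miR-241 to 7 arrays.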
